A study of Mus musculus with 8 samples.

Results

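The 10 genes described here belong to the Hippo-YAP pathway. They include the co-activators Yap1 and Wwtr1 and a DNA-binding partner of both, Tead1. The other 7 are known as targets or feedback regulators of that trio (Ccn1, Ccn2, Ankrd1, Amotl2, Dlc1, Ajuba and Lats2). The 10 genes were chosen by name, with earlier results of these data known. All 10 of 10 had a probe set that names exactly 1 gene, out of 22180 such genes on the array. RNA came from 8 clonal mouse cell lines of hepatocyte origin, 4 from intrahepatic cholangiocarcinoma (ICC), which resembles bile duct epithelium, and 4 from hepatocellular carcinoma (HCC), which resembles hepatocytes. Every tumour arose in C57BL/6 mice from c-Myc together with NrasG12V, both on the pCaMIN vector, so all lines of both groups carry these oncogenes and there is no line without them. ICC was started by electroporating a small area of the liver, and HCC by hydrodynamic injection into the tail vein, so tumour type and delivery route cannot be told apart. By their sex label ICC9, ICC10, HCC2.1 and HCC2.4 are female, while ICC2.7, ICC2.9, HCC1 and HCC4 are male. All lines were kept untreated in DMEM with 10% FCS at 7.5% CO2. Ages are not in the labels, and each line is 1 clone. The labels do not say which lines share an animal or a tumour, so every p-value measures only the spread between these lines.

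Hippo signalling is a kinase cascade that holds back YAP (Yap1) and TAZ (the product of Wwtr1). When the kinases Lats1 and Lats2 are active, YAP and TAZ are phosphorylated and kept out of the nucleus. When they are inactive, YAP and TAZ enter the nucleus, bind TEAD factors and switch on genes such as Ccn1, Ccn2 and Ankrd1. In the liver the pathway is known for limiting organ size and for its part in the choice between hepatocyte and bile duct fate. An array reads transcript levels, while Hippo signalling acts largely on YAP and TAZ protein, which was not measured here.

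TEAD factors recognise the letters GGAATG, which read CATTCC on the other strand. The stretches below show where those letters stand near listed transcript starts of the measured genes. The sequences are from RefSeq (GRCm38.p6), and each window runs from 250 bases before to 50 bases after a listed transcript start. Positions below count from that start, which for Yap1, Lats2 and Amotl2 lies inside the gene as annotated. Windows were listed for 7 of the 10 genes, and those of Tead1, Ccn2 and Dlc1 were not analysed here. Each stretch is printed 5′ to 3′ on the strand of its gene, with the matching letters in capitals.
Ccn1: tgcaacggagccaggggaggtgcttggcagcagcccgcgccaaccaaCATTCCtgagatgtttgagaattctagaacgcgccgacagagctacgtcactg
Ankrd1: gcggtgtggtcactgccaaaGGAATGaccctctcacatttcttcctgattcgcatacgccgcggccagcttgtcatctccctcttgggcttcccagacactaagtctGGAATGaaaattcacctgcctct
Ajuba: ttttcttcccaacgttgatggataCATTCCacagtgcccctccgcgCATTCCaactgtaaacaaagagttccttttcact
Yap1: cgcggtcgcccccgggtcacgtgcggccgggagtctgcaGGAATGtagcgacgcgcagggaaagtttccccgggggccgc
Wwtr1: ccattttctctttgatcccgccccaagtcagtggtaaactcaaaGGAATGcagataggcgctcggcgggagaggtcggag
Amotl2: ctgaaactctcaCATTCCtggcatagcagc

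The Ccn1 stretch is chr3:145650036-145650135 on the minus strand, and its match begins 103 bases before the gene start. The Ankrd1 stretch is chr19:36119945-36120074 on the minus strand and holds 2 matches, which begin 210 and 123 bases before the start. The Ajuba stretch is chr14:54577792-54577871 on the minus strand, also with 2 matches, which begin 186 and 164 bases before the start. Yap1 (chr9:8004697-8004776, minus strand) and Wwtr1 (chr3:57576011-57576090, minus strand) have 1 match each, which begin 141 and 136 bases before the start. The Amotl2 stretch is chr9:102717727-102717756 on the plus strand, with its match beginning 65 bases before the start of the listed transcript. As annotated the Amotl2 gene begins at 102717091, so this stretch lies within it. Lats2 has 2 listed windows, and only the first holds a match, which begins 4 bases after the start. All 7 genes with a listed window therefore hold the letters GGAATG on one strand or the other, against 16.58% of the 27025 genes with such windows. Among 15 measured genes of published YAP/TAZ target signatures that are not members, 2 of the 9 with a window hold it. AP-1 factors recognise the letters TGANTCA, which read the same way on both strands. Those letters are in the windows of 0 of the 7 genes, against 8.97% of all genes with windows. These matches describe letters in a window and were not tested as binding sites.

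**Figure D1:**
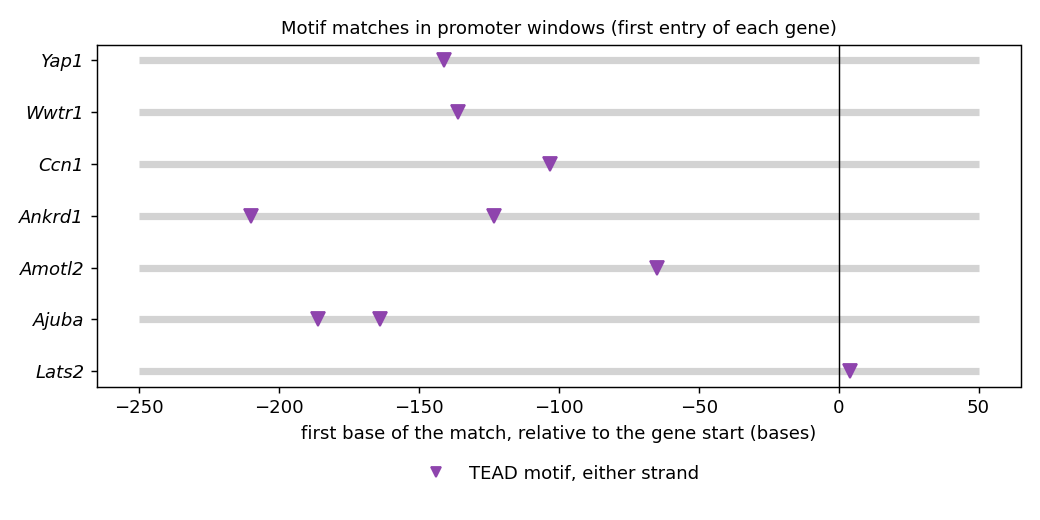
Position of the TEAD motif in the first listed promoter window of each gene that has one. The grey bar runs from 250 bases before to 50 after the listed transcript start at 0, which is not always the outer end of the gene. Each triangle is the first base of a match on either strand. In 6 genes the matches lie between 210 and 65 bases before the start, and in Lats2 the match begins 4 bases after it.

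Values are log2 expression after RMA, 1 array per line, with array medians between 5.02 and 5.09. With so few arrays, their number sets the precision of each difference. All 10 genes had a mean above that of the median gene (5.66), and Lats2 came closest to it at 6.45. The 8 columns span only 7 directions, and ICC9 carries the largest weight (0.78) in the missing one, so its values are nearly a weighted sum of those of the other lines. Of the markers checked, 1 of 6 hepatocyte genes had a mean above the median gene (Hnf4a). So did 3 of 4 measured bile duct genes (Krt7, Krt19 and Sox9). The Alb transcript lay below the median gene in every line (4.12 to 4.64), while Apoa1 lay around it (5.03 to 5.94). Hnf4a lay above the median gene in HCC2.1 (7.26), HCC2.4 (7.06), ICC9 (5.92) and HCC4 (5.70) and below it, at 5.32 to 5.40, in the other 4 lines. None of the 25 measured markers of hepatocytes, bile duct cells, fibroblasts, endothelium or leukocytes was called between the types, and 2, Tek and Cd3e, both below the median gene, did not overlap, where 8.63% of all genes did not. Of the other cell types' markers, 3 of 6 fibroblast genes, 0 of 4 endothelial genes and 1 of 5 leukocyte genes lay above the median gene, and the mean level of each list overlapped between the types. Single fibroblast markers nevertheless stood high in 1 pair of lines: Col1a1 measured 9.82 in ICC2.7 and 8.19 in ICC2.9, with 6.41 to 7.18 elsewhere, and Pdgfrb 10.55 and 9.89, with 6.66 to 8.41 elsewhere. Col1a2, Pdgfra, Dcn and Lum did not set this pair apart. Col1a2 measured 6.69 and 6.77 there and 6.78 in HCC4, and Pdgfra was lowest in ICC2.7 (5.32).

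Between the types, Wwtr1, Tead1 and Dlc1 were higher in every ICC line than in every HCC line, and Ccn2 was lower in every ICC line. The remaining 6 genes overlapped. Limma (two-sided, Benjamini-Hochberg over all 22180 genes) called 0 of the 10 at an adjusted p under 0.05, where 0.261% of all genes were called. At an unadjusted p under 0.05, 4 of the 10 passed in limma, against 14.1% of all genes. They were Wwtr1, Tead1 and Dlc1, higher in ICC as 7.06% of all genes were, and Ccn2, lower in ICC as 7.04% were. These 4 were also the genes whose lines did not overlap, against 8.63% of all genes (4.19% higher and 4.44% lower in ICC). Because the 10 genes were chosen with earlier results of these data known, these shares are no test of the set. The number of genes called over all genes itself moved with single lines, from 58 to 2 without ICC9, 4 without HCC2.1, 5 without HCC2.4, 16 without ICC2.7, 28 without ICC2.9, 91 without HCC4 and 109 without HCC1. Of the differences, 5 were positive and 5 negative, with a median of 0.05 log2 units against 0.00 over all genes and a median size of 0.31 against 0.13. The figures over all genes take in those below the median level, while all 10 genes here lay above it.

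**Figure D2:**
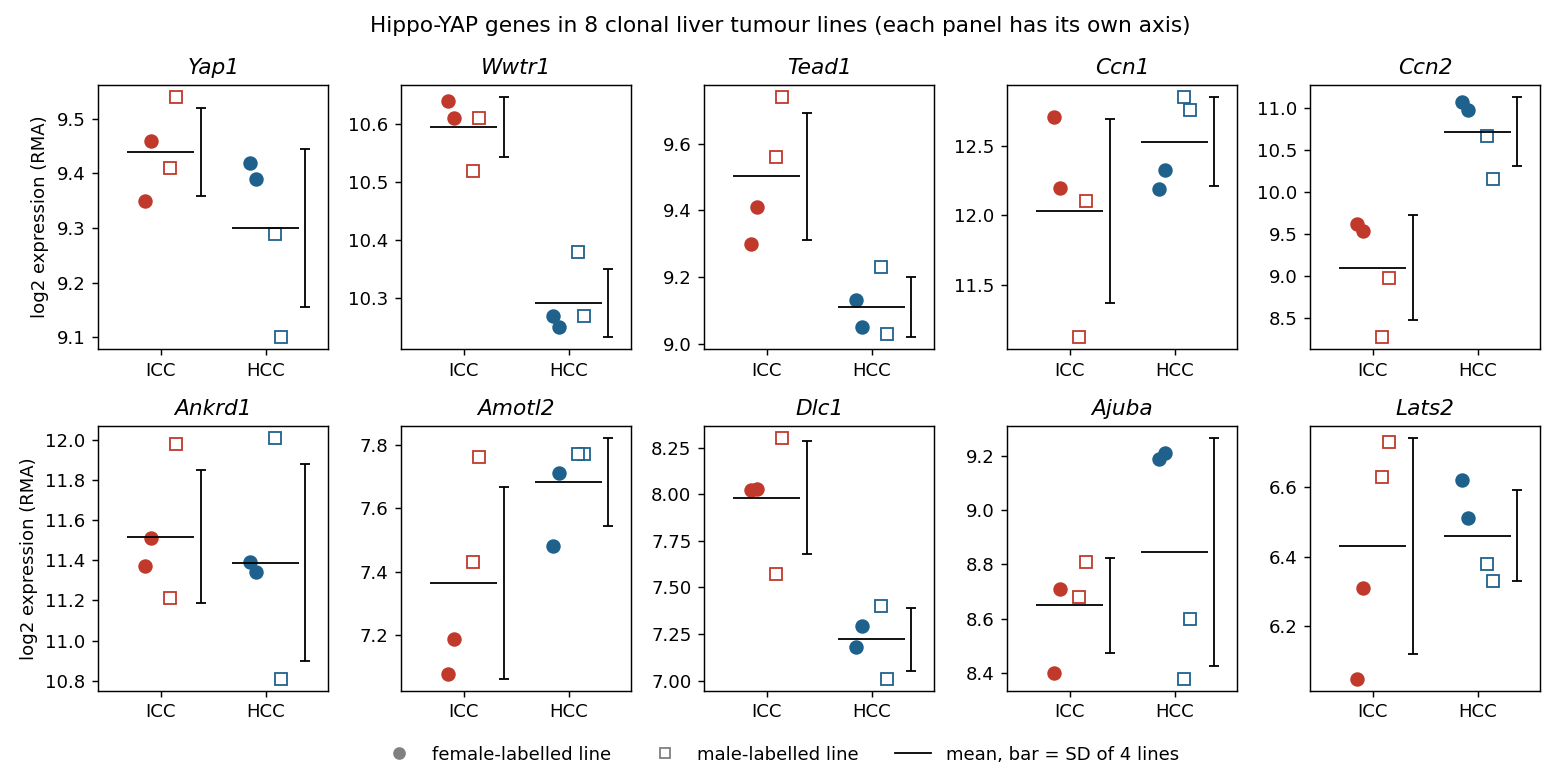
Log2 expression of each gene in the 4 ICC and 4 HCC lines, with a separate vertical axis per gene. Filled circles are female-labelled and open squares male-labelled lines, the horizontal line is the mean of 4 lines and the bar beside it the SD. The types do not overlap for Wwtr1, Tead1, Ccn2 and Dlc1.

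Among the effectors, Yap1 (probe set 17523883), the co-activator held back by the Hippo kinases, varied little. It measured 9.46, 9.35, 9.54 and 9.41 in ICC9, ICC10, ICC2.7 and ICC2.9, and 9.10, 9.29, 9.39 and 9.42 in HCC1, HCC4, HCC2.1 and HCC2.4. The types overlapped, and HCC1 was the lowest line. The difference of ICC minus HCC was 0.14 (SE 0.10, 95% interval -0.08 to 0.36; limma adjusted p = 0.554). Without HCC1 it was 0.073. In female-labelled lines it was 0.00 and in male-labelled lines 0.28. The other Yap1 probe set (17514610) was dim, between 3.09 and 3.55.

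Wwtr1 (probe set 17405365), which encodes the co-activator TAZ, measured 10.61, 10.64, 10.61 and 10.52 in the ICC lines and 10.27, 10.38, 10.25 and 10.27 in the HCC lines, in the same order of lines. All ICC lines lay above all HCC lines, and the spread within a type was small (SD 0.05 in ICC and 0.06 in HCC, n = 4 each). The difference was 0.30 (SE 0.07, 95% interval 0.13 to 0.47), a 1.23-fold higher level in ICC. It did not pass the test over all genes (limma adjusted p = 0.136). Without ICC9 it was 0.30 (adjusted p = 0.355). It was 0.365 in female-labelled and 0.24 in male-labelled lines.

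Tead1 (probe set 17481936), a TEAD factor through which YAP and TAZ reach DNA, was likewise higher in all ICC lines. It measured 9.41, 9.30, 9.74 and 9.56 in the ICC lines and 9.03, 9.23, 9.05 and 9.13 in the HCC lines. The types did not overlap, with ICC10 and HCC4 the nearest lines across them. ICC lines measured 9.50 ± 0.19 and HCC lines 9.11 ± 0.09 (SD, n = 4 each), a difference of 0.39 (SE 0.11, 1.31-fold; limma adjusted p = 0.176). Without ICC9 it was 0.42 (adjusted p = 0.337).

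Among the targets, Ccn2 (probe set 17232235), a secreted matricellular protein also called connective tissue growth factor, had the widest range of the 10 genes, 2.80 log2 units over the 8 lines. It measured 9.53, 9.62, 8.98 and 8.27 in the ICC lines and 10.15, 10.67, 10.97 and 11.07 in the HCC lines. Every ICC line lay below every HCC line, with ICC2.9 the lowest and HCC2.4 the highest. ICC lines stood at 9.10 ± 0.62 and HCC lines at 10.72 ± 0.41 (SD, n = 4 each). The difference was -1.62 (SE 0.31, 95% interval -2.33 to -0.90), a 3.06-fold lower level in ICC, with a limma adjusted p of 0.0806. It ran in the direction opposite to Wwtr1 and Tead1. ICC2.7 and ICC2.9, the lowest lines for Ccn2, were also the lines with the highest Col1a1 and Pdgfrb, whose part in the difference was not tested. The other fibroblast markers, Col1a2, Pdgfra, Dcn and Lum, did not set those lines apart.

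The call on Ccn2 depended on the model. With the sex label as a covariate limma called it (adjusted p = 0.00945), also with the missing direction added (0.0303), and it was called in the female-labelled lines alone (-1.445, adjusted p = 0.0173). With the missing direction alone (0.183), with a random block for lines that share type and sex label (0.269) and without any single line (0.0673 to 0.198) it was not called. Without ICC9 the difference was -1.76 (adjusted p = 0.164). The other Ccn2 probe set (17239773) was dim. It measured 4.66, 4.85, 3.83 and 3.99 in the ICC lines and 4.82, 5.25, 5.39 and 5.06 in the HCC lines. It was lowest in ICC2.7 and ICC2.9, but ICC10 lay just above HCC1.

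Ccn1 (probe set 17410974), the matricellular relative of Ccn2 once called Cyr61, did not separate the types. It measured 12.20, 12.71, 12.10 and 11.12 in the ICC lines and 12.76, 12.85, 12.33 and 12.19 in the HCC lines. ICC2.9 was again the lowest line, while ICC10 lay above both female-labelled HCC lines. The difference was -0.50 (SE 0.31, 95% interval -1.21 to 0.21; limma adjusted p = 0.511). Without ICC2.9 it was -0.20.

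Ankrd1 (probe set 17364176), an ankyrin repeat protein often used as a readout of YAP activity, differed more within a type than between types. It measured 11.51, 11.37, 11.98 and 11.21 in the ICC lines and 10.81, 12.01, 11.34 and 11.39 in the HCC lines. HCC1 and HCC4, the male-labelled HCC lines, held the lowest and the highest value of all. The difference was 0.13 (SE 0.25, 95% interval -0.44 to 0.70; limma adjusted p = 0.861), and it turned to -0.0625 without HCC1 and to -0.0242 without ICC2.7. The targets Ccn1, Ccn2 and Ankrd1 thus did not share an order of lines: HCC1 was lowest for Ankrd1 but among the upper lines for Ccn1.

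Dlc1 (probe set 17508804), a tumour suppressor gene, measured 8.03, 8.02, 8.30 and 7.57 in the ICC lines and 7.01, 7.40, 7.29 and 7.18 in the HCC lines. Every ICC line lay above every HCC line, with ICC2.7 highest and HCC1 lowest. ICC lines stood at 7.98 ± 0.30 and HCC lines at 7.22 ± 0.17 (SD, n = 4 each). The difference was 0.76 (SE 0.16, 95% interval 0.40 to 1.12), a 1.69-fold higher level in ICC (limma adjusted p = 0.0916). It was 0.79 in female-labelled lines, where limma called it (adjusted p = 0.0312), and 0.73 in male-labelled lines, where it did not (0.285). Without ICC9 it was 0.74 (adjusted p = 0.257).

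**Figure D3:**
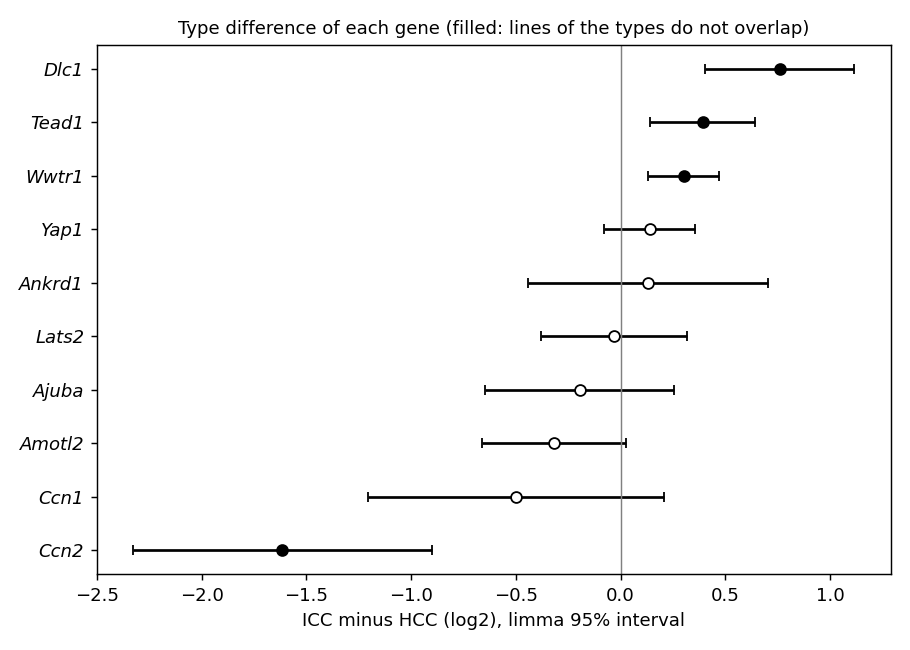
Difference of ICC minus HCC (log2) for each gene, with limma's 95% interval over 4 lines per type. Filled points are genes whose lines do not overlap between types. Intervals of Dlc1, Tead1 and Wwtr1 lie above 0 and that of Ccn2 below it, before adjustment over all genes.

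The feedback regulators overlapped between the types. Amotl2 (probe set 17520856), an angiomotin that binds YAP and holds it in the cytoplasm, measured 7.19, 7.08, 7.76 and 7.43 in the ICC lines and 7.77, 7.77, 7.71 and 7.48 in the HCC lines. ICC2.7 reached the HCC range and the other ICC lines lay below it. The difference was -0.32 (SE 0.15, 95% interval -0.66 to 0.03; limma adjusted p = 0.393).

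Lats2 (probe set 17307184), the kinase that phosphorylates YAP and TAZ and is itself one of their targets, measured 6.31, 6.05, 6.73 and 6.63 in the ICC lines and 6.33, 6.38, 6.51 and 6.62 in the HCC lines. The ICC lines held both the lowest value (ICC10) and the highest (ICC2.7). The difference over all lines was -0.03 (SE 0.15, 95% interval -0.38 to 0.32; limma adjusted p = 0.952). Ajuba (probe set 17306396), a LIM protein that restrains Lats kinases, measured 8.71, 8.40, 8.81 and 8.68 in the ICC lines and 8.60, 8.38, 9.21 and 9.19 in the HCC lines. HCC2.1 and HCC2.4 stood above all other lines, and the difference was -0.195 (SE 0.20, 95% interval -0.65 to 0.26; limma adjusted p = 0.704). Single lines moved it, to -0.073 without HCC2.1, -0.08 without HCC2.4, -0.11 without ICC10 and -0.35 without HCC4. HCC2.1 and HCC2.4 were also the lines with the highest Hnf4a, whose part in the difference was not tested. The other hepatocyte markers did not follow Hnf4a. Cyp2e1 was lowest in HCC2.1 (4.53) and HCC2.4 (4.51), and Alb, Apoa1, Ttr and Fgb did not set these lines apart.

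Lats2 and Ajuba had opposite type differences in the lines of each sex label. Both ICC lines labelled female lay below both HCC lines labelled female, by 0.385 for Lats2 and 0.645 for Ajuba (differences -0.385 and -0.645). Both ICC lines labelled male lay above both HCC lines labelled male, by 0.325 for Lats2 and 0.255 for Ajuba. Among the other pathway genes, Lats1, Mob1b, Wwc2, Taok2, Tead2, Tead3, Limd1 and Axl showed this pattern too, and Tead4 and Vgll2 its reverse. The share of all genes with such a pattern was not counted. Limma's interaction of type and sex label was -0.71 for Lats2 (SE 0.17, adjusted p = 0.121) and -0.90 for Ajuba (SE 0.20, adjusted p = 0.115). Ccn1 ran the other way, at 0.195 in female-labelled and -1.195 in male-labelled lines (interaction 1.39, SE 0.43, limma adjusted p = 0.152). These 3 of 10 genes had an unadjusted p under 0.05, against 20.1% of all genes, and limma called 0 of all 22180 genes (0%) for the interaction after adjustment. Lines of one sex label within a type may share a source, which the labels do not give, so sex and source cannot be told apart.

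With tumour type in the model, Ccn2 and Amotl2 differed most between the sex labels. Ccn2 averaged 10.30 in female-labelled and 9.52 in male-labelled lines, and in each type both female-labelled lines lay above both male-labelled lines. The difference of female minus male was 0.78 (SE 0.18, limma adjusted p = 0.0662). Amotl2 ran the other way at -0.32 (SE 0.11, limma adjusted p = 0.192), and in each type the highest line was labelled male. Limma called 0 of the 10 genes for sex label, where 2.94% of all genes were called, and 2 of the 10 had an unadjusted p under 0.05, against 17.5%.

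**Figure D4:**
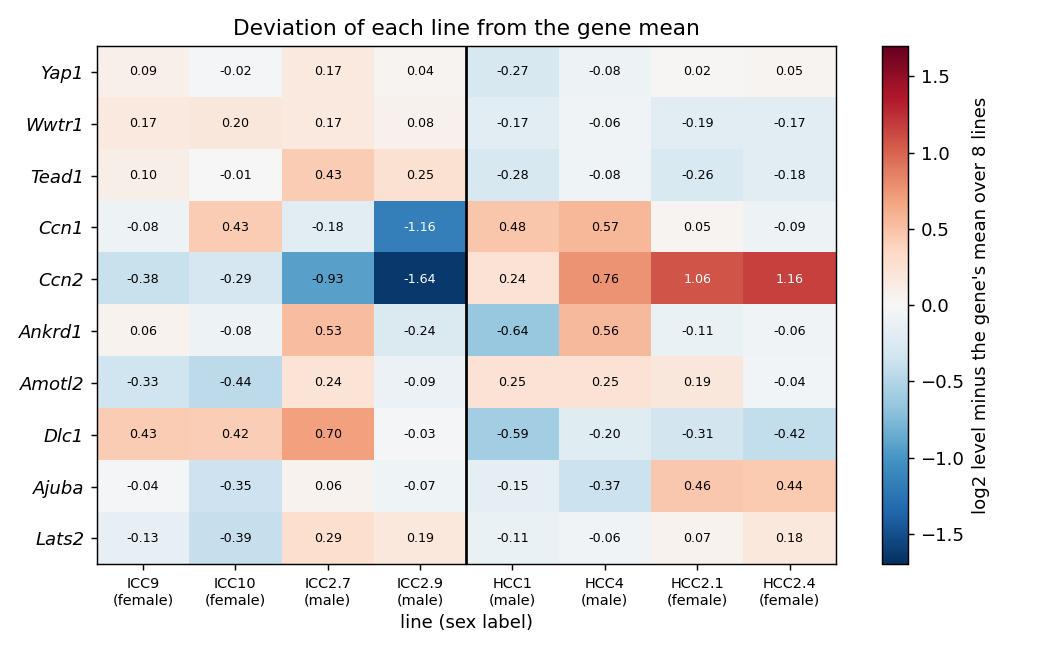
Deviation of each line from a gene's mean over the 8 lines (log2, printed in each cell), with the 4 ICC lines to the left of the black line. Wwtr1, Tead1 and Dlc1 lie mostly above their mean (red) on the left and below it (blue) on the right, with pale shades in Wwtr1. Ccn2 is the reverse. Ajuba is red in HCC2.1 and HCC2.4, whose log2 levels were 9.21 and 9.19.

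The genes with the pattern most like Ccn2 over the 8 lines were Lrrk1 (Pearson r = 0.996), Pim1 (0.989) and Stx5a (0.988). Lrrk1, a leucine-rich repeat kinase gene, followed the order of Ccn2 exactly, from 8.98 in ICC2.9 to 9.94 in HCC2.4 (Spearman rank correlation of 1). Pim1, a serine/threonine kinase gene, ran from 8.29 in ICC2.9 to 9.49 in HCC2.1. For Yap1 the nearest were Tbrg3 (0.989), 7420700N18Rik (0.985) and Ap1m2 (0.974), 2 of which, 7420700N18Rik and Ap1m2, stayed below the median gene in every line. These are the highest of 22179 correlations over 8 points that include close pairs of lines, and they were not tested.

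Other genes of the pathway, in lists likewise chosen with earlier results known, were measured in 45 of 49 cases. Limma called 1 of the 45 between the types, where 0.261% of all genes were called, and 9 had an unadjusted p under 0.05, which is 20% against 14.1% of all genes. The median difference was -0.02 over these 45 genes and 0.00 over all genes. None of the 5 measured kinases and adaptors of the core cascade had an unadjusted p under 0.05 in limma, and their differences lay between -0.14 and 0.21. The kinase activator Mob1a differed by 0.21 (adjusted p = 0.424) and the kinase gene Stk4, which encodes MST1, by -0.14 (adjusted p = 0.451).

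Upstream regulators, 14 measured, included 5 with an unadjusted p under 0.05 in limma (35.7%, against 14.1% of all genes) and 0 called. In 4 of them the types did not overlap (28.6%, against 8.63% of all genes). Frmd6, a FERM domain protein, measured 8.77 to 9.06 in ICC and 8.45 to 8.67 in HCC lines (difference 0.345, adjusted p = 0.185). Map4k4, a kinase that can activate the Lats kinases, measured 10.62 to 10.83 and 10.08 to 10.52 (difference 0.38, adjusted p = 0.195). Ptpn14, a phosphatase that binds YAP, measured 9.68 to 9.85 and 9.12 to 9.66 (difference 0.415, adjusted p = 0.202). These 3 were higher in ICC, and Wwc1, the scaffold protein KIBRA, was lower, at 6.43 to 6.74 against 6.76 to 6.98 (difference -0.31, adjusted p = 0.209).

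Of 7 measured TEADs and co-regulators besides Tead1, none had an unadjusted p under 0.05 in limma, and none separated the types. The TEAD-binding co-regulator genes Vgll3 and Vgll4 differed by 0.56 and -0.25 (adjusted p = 0.368 and 0.422), and the other 5 genes lay between them. Without ICC2.7 the Vgll3 difference was 0.345. Tead2, with a mean of 9.89 over all lines, differed by 0.07 (limma adjusted p = 0.923). Tead3 and Tead4 differed by -0.085 and -0.015 (limma adjusted p = 0.822 and 0.976). Whether the difference in Tead1 exceeds that of the other TEAD genes was not tested. Among the other angiomotins and LIM proteins, 4 measured and 0 called, Amotl1 differed by 0.35 (adjusted p = 0.367) and Limd1, a LIM protein that restrains Lats kinases as Ajuba does, by -0.11 (adjusted p = 0.803).

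Of 15 measured target genes outside the 10, 11 had a negative difference and 4 a positive one, where 11019 of all 22180 genes had a negative one. Their median was -0.17, against 0.00 over all genes. In 2 of the 15 the types did not overlap (13.3%, against 8.63% of all genes): Igfbp3, lower in ICC, and Ccdc80, higher in ICC. Igfbp3, whose product binds insulin-like growth factors, was the 1 gene called and fell in ICC, from 10.37 to 11.24 in HCC lines to 7.75 to 8.01 in ICC lines (difference -2.90, SE 0.18, limma adjusted p = 0.00103). With lines that share type and sex label averaged the difference was the same and the call was lost (adjusted p = 0.601), while with a random block for such lines it was called (0.00272). Nt5e, the ectonucleotidase CD73, measured 8.63, 8.96, 7.10 and 7.03 in the ICC lines and 9.27, 8.50, 9.97 and 9.88 in the HCC lines, so HCC4 lay within the ICC range (difference -1.475, SE 0.50, adjusted p = 0.247). Limma called Nt5e with sex as a covariate (adjusted p = 0.0165), but not with a random block for lines that share type and sex label (0.545) or with those lines averaged (0.921). Dock5, an exchange factor for Rac, differed by -0.65 (adjusted p = 0.328). In HCC4 it measured 7.45, below the 8.24 to 8.35 of the remaining HCC lines. Fjx1, a four-jointed family gene, differed by -0.39 (adjusted p = 0.299).

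**Figure D5:**
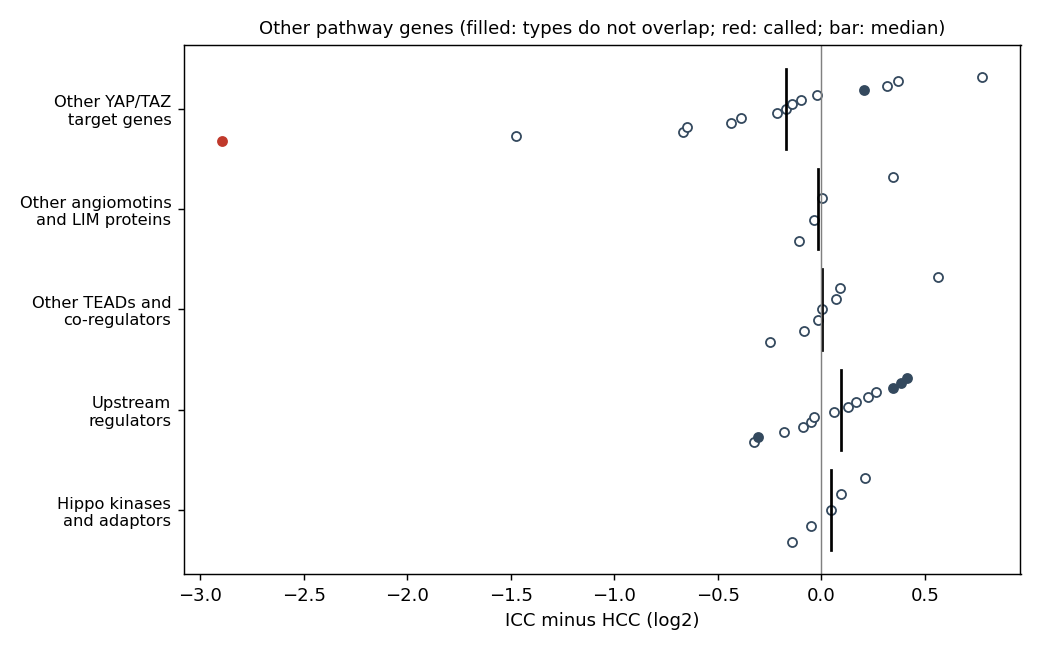
Difference of ICC minus HCC (log2) for the 45 other pathway genes, by list, with the black bar at the list median. Filled points do not overlap between types. The red point is Igfbp3 at -2.90, the 1 gene called.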

How the data were processed

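The deposited values are log2 expression made by RMA with oligo, per the submitters' processing notes. Their versions and the array annotation's build were not stated in the sources used here. Each of 8 lines had 1 array. Of 39993 probe sets 23521 name exactly 1 gene. Where a gene had several, the one with the highest mean over the lines stood for it, giving 22180 genes. No dim genes were removed, and signal over background was not assessed.

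Limma 3.58.1 under R 4.3.3 fitted type alone, sex label with type, and their interaction (lmFit, eBayes; two-sided; called at a Benjamini-Hochberg adjusted p under 0.05 across all genes). An SE is limma's moderated standard error, and ± gives an SD. On simulated, independent lines with 22180 genes, the type comparison recovered 88.3% of differences of 1 log2 unit and the interaction 22.2%. The simulated noise left out the spread between sex labels and any likeness of lines that share type and sex label. These shares are therefore likely too high for the real lines.

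The members and lists were chosen with earlier results of these data known. Named are all 10 members, called pathway genes, up to 4 genes per list by smallest p (2 where none had an unadjusted p under 0.05), and the 3 genes most correlated with Yap1 and with Ccn2. Some further pathway genes are named beside the results they bear on. Stk3, Rassf1, Taok1 and Gadd45a, and the marker Spp1, were not analysed here. Promoter windows were matched by symbol. Alternatives covered eBayes settings, dim genes, normalization, probe sets, covariates, blocks, array weights, sex subsets and each line left out.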

Additional observations from a re-analysis of the deposited data

Results flagged for a closer look

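Among the HCC lines Wwtr1 in HCC4 stood apart, at 10.38 with the others at 10.25 to 10.27. The target gene Dock5 in HCC4 stood at 7.45, with the other HCC lines at 8.24 to 8.35. These were the 2 values that stood apart among 48 groups of 4 lines checked, and chance gives about 1 in 20 groups.

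The type difference of Ajuba and that of Lats2 had opposite signs in all lines of each sex label. The pattern was not particular to them, as Lats1, Mob1b, Wwc2, Taok2, Tead2, Tead3, Limd1 and Axl showed it too. Its share over all genes was not counted. The difference in female-labelled minus that in male-labelled lines was -0.90 for Ajuba and -0.71 for Lats2. Limma's interaction test did not call either over all genes (adjusted p = 0.115 and 0.121).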

How the results depend on the processing

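No paired analysis was possible because the labels do not pair ICC lines with HCC lines. Under all 21 alternatives Wwtr1, Tead1 and Dlc1 stayed higher and Ccn2 and Amotl2 lower in ICC. For Wwtr1, Tead1, Dlc1 and Ccn2, whose lines did not overlap, leaving out lines could not turn the sign. Covariates, blocks and averaging left each difference as it was. The kept signs are therefore no test of stability. Of the 10 genes limma called 1 with sex as a covariate (Ccn2), 1 with sex and the missing direction (Ccn2), 2 in female-labelled lines (Ccn2 and Dlc1) and 5 with array weights (Wwtr1, Tead1, Ccn2, Amotl2 and Dlc1), but 0 without any single line. In the same order, these settings called 428, 119, 696 and 2278 of all 22180 genes, and 2 to 109 without single lines. The array weights did not converge and gave ICC9 a weight of 71.6, with the others at 0.35 to 0.98, so those 5 calls lean on that line. For sex label limma called 1 of the 10 (Ccn2) among genes above the median level, where 858 of 11087 genes were called. With each line left out it called 0 to 1 (Ccn2 without HCC4, where 917 of all 22180 genes were called). For the interaction it called 0 of the 10 throughout.

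The count over all genes between the types was 58. It became 103 among genes above the median level, 12 with the missing direction, 428 with sex as a covariate, 119 with sex and the missing direction, and 6 with a random block. It became 0 with lines averaged (limma; 1170 had an unadjusted p under 0.05), 2278 with array weights, 696 in female-labelled and 200 in male-labelled lines, and 2 to 109 without single lines. For sex label the count of 653 became 280 with the missing direction and 146 to 917 without single lines. For the interaction the count of 0 became 255 with the missing direction and 0 to 238 without single lines. Of the 45 other pathway genes 1 was called, and 3 with sex as a covariate, 2 with sex and the missing direction, 0 with lines averaged, 6 with array weights, 5 in female-labelled lines, 2 in male-labelled lines and 1 to 2 without single lines. The cause of these shifts was not tested.

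Some differences changed sign in the lines of 1 sex label. In female-labelled lines Ccn1, -0.50 over all lines, was 0.195 and Amotl1 -0.04. In male-labelled lines Ajuba was 0.255, Lats2 0.325 and Limd1 0.225. Without single lines Ankrd1 ran from -0.0625 to 0.34, Lats2 from -0.13 to 0.10 and Limd1 from -0.21 to 0.00083.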
